A study of Homo sapiens with 10 samples.

Results

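The introns described here were those of A549 cells, a human lung adenocarcinoma line, whose spliced reads dropped out of the record after 25 μg/mL DRB. An intron was taken when it matched an intron of GENCODE release 44 (mapped to GRCh37) at both ends, had at least 30 split reads in both DMSO libraries, and was listed in neither library of cells given 25 μg/mL DRB. A split read crosses an exon-exon junction and so counts one spliced-out intron. Of 126404 intron positions listed in the series, 110068 matched the annotation, 27028 of these had at least 30 split reads in both DMSO libraries, and 2824 (10.4%) were lost with 25 μg/mL DRB. The introns were thus chosen by their split reads in the DMSO and 25 μg/mL DRB libraries, and the loss is the rule and not a finding. The remaining 24204 were still listed in at least 1 library of 25 μg/mL DRB.

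The series holds 10 RNA-seq libraries of A549 cells, 2 for each of 5 conditions: DRB at 10 and 25 μg/mL, α-amanitin at 1 and 2 μg/mL for 24 h, and DMSO as the control that the drugs were set against. How long cells were kept in DRB or DMSO is not given by the labels or the paper. The labels do not say whether the 2 libraries of a condition came from separate cultures, so that a p-value here reflects only how these libraries scatter, which may be technical. The libraries of 25 μg/mL DRB held 2899344 and 5175747 split reads, and the other 8 held between 3945772 and 6498515.

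RNA polymerase II starts transcription and then pauses close to the start of the gene. Its release needs the kinase CDK9 of P-TEFb, which DRB inhibits together with other kinases. α-Amanitin binds the polymerase itself and at length leads to its degradation. An intron is removed between a donor (5′ splice site), which usually begins with GT, and an acceptor (3′ splice site), which usually ends with AG. Most introns are removed soon after they are made, so that split reads count spliced RNA, new and old alike. When synthesis is blocked, the split reads that remain come from RNA made before, and transcripts with short lives leave the pool first. Less RNA per cell and a smaller share of the transcript in the pool cannot be told apart here, because every value is a share of its own library.

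The splice sites below belong to lost introns that the following results turn on, and are shown so that ordinary and rare site types can be seen side by side. Each donor has 15 exonic and 15 intronic bases and each acceptor 20 intronic and 10 exonic bases, from GRCh37, in the direction of transcription. The capitals mark the first or last pair of intronic bases.
NASP intron 4 donor, chr1:46070674-46070703, plus strand: tctggagttggcaagGTatggatgttgtat
NASP intron 4 acceptor, chr1:46072134-46072163, plus strand: gctttcttttgttctcctAGaatggagaat
CCNB2 intron 7 donor, chr15:59409553-59409582, plus strand: ggacaaggaaaatggGTgagtggtggattt
CCNB2 intron 7 acceptor, chr15:59415696-59415725, plus strand: gtctgcttcttgtgtttcAGaacttaaagc
KIF11 intron 20 donor, chr10:94409729-94409758, plus strand: gaagagacaattccgGTaaatttaaaggat
KIF11 intron 20 acceptor, chr10:94410138-94410167, plus strand: catccagtttcttcttttAGgatgtggatg
TPR intron 50 donor, chr1:186283746-186283775, minus strand: ttaacagacagagagGTgaatttctgacat
TPR intron 50 acceptor, chr1:186283149-186283178, minus strand: gattcttttttcttttacAGgtgtgagcca
ECT2 intron 10 donor, chr3:172480582-172480611, plus strand: gttgtcaagcaagagGCaagtaattctaga
ECT2 intron 10 acceptor, chr3:172480680-172480709, plus strand: atgttttttctctcacctAGtggttctggg
MCMBP intron 5 donor, chr10:121616835-121616864, minus strand: acgtgggtaaaagaaATatcctttatctga
MCMBP intron 5 acceptor, chr10:121612697-121612726, minus strand: ttcttaacttttcgtttaACgcctatgtta
The first 4 introns carry the usual GT and AG. The ECT2 donor begins with GC, a rare variant that the same spliceosome uses, and the MCMBP intron begins with AT and ends with AC, a form found mainly among introns of the minor (U12-type) spliceosome. For contrast, these are the splice sites of an intron of the same gene, TPR intron 41, that was still listed.
TPR intron 41 donor, chr1:186295221-186295250, minus strand: gctgatgatgctgagGTaactggctagaat
TPR intron 41 acceptor, chr1:186294977-186295006, minus strand: ttaccacgttttgtttttAGggtggtgatg

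By site type, 2790 of 26766 GT-AG introns (10.4%), 27 of 181 GC-AG introns (14.9%) and 1 of 27 AT-AC introns (3.70%) were lost. Of introns with a donor beginning GTGAG 485 of 7291 were lost (6.65%), and of those beginning GTAAG 929 of 7612 (12.2%). Their exon ends had a median of 55% and 45% G+C. These shares describe the introns and are not tests.

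The threshold fixes how far the loss can be read. In each of the 10 libraries the lowest split-read count listed was 3, and the larger of the totals at an intron's donor and acceptor, unspliced reads and reads of competing introns included, was at least 11. An intron that is not listed could thus hold up to 10 split reads, unless another filter of the authors removed it. A count of 10 reads amounts to 3.45 and 1.93 CPM (split reads scaled to a library of 1000000) in the libraries of 25 μg/mL DRB, or 2.69 CPM on average. Taken over that floor of 10 reads per library, the lost introns were at least 2.47-fold lower than their DMSO mean in every case and at least 3.53-fold lower at the median. For 966 of them the bound was 4-fold or more, and for 28 it was 10-fold or more.

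The lost introns were of modest level to begin with. Their DMSO mean had a median of 43 split reads (quartiles 37 and 54, range 30 to 279), against 68 (46.5 and 117.5) for the introns still listed. The share lost was 24.6% at a DMSO mean of 30 to 40 reads, 15.5% at 40 to 60, 6.03% at 60 to 100, 1.30% at 100 to 200 and 0.0678% (2 of 2948) at 200 and over. Just inside the threshold, 209 lost introns had exactly 30 reads in at least 1 DMSO library, among them introns of KIF5B, OGA and SEPTIN8 with 30 in both. Just outside it, 480 annotated introns had 28 or 29 reads in 1 DMSO library and at least 30 in the other, and were in neither library of 25 μg/mL DRB. The shallower replicate 1 of 25 μg/mL DRB alone lacked 6055 of the 27028 introns and replicate 2 alone lacked 3002. Of the introns still listed, 3231 were in replicate 2 only, with a median of 16 split reads there.

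The same rule with another drug in place of 25 μg/mL DRB took far fewer introns. With 10 μg/mL DRB it took 24, with 1 μg/mL α-amanitin 0 and with 2 μg/mL α-amanitin 1. In the opposite direction, 219 of the 14095 annotated introns with at least 30 reads in both libraries of 25 μg/mL DRB were listed in neither DMSO library.

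**Figure D1:**
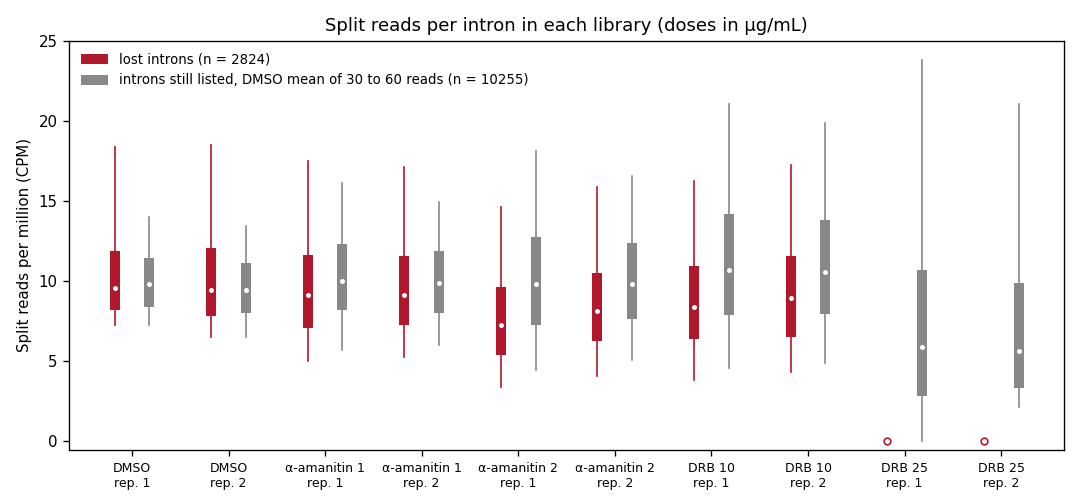
CPM (y axis) of the lost introns (red, n = 2824) and of introns still listed with a DMSO mean of 30 to 60 reads (grey, n = 10255) in each of the 10 libraries (x axis, doses in μg/mL). Points are medians, thick bars the quartiles and thin bars the 5th to 95th percentiles. The lost introns have medians of 7.20 to 9.54 CPM in the other 8 libraries and are unlisted, drawn at 0, in both libraries of 25 μg/mL DRB, which is how they were chosen.

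The lost introns were gathered in genes. Of the 2824, 2702 lay in 1 gene only and 122 were shared by overlapping or nested gene annotations. The 2702 came from 901 host genes, of 4383 genes with an intron of their own among the 27028, and 2787 of the 2824 lay in protein-coding genes. Of the host genes, 400 lost 1 intron, 156 lost 5 or more and 47 lost 10 or more, and the 156 genes held 1369 of the lost introns. The most came from TPR, a scaffold of the nuclear pore basket, with 36 of its 39 introns that passed the read minimum. CKAP5, a microtubule polymerase of the spindle, lost 33 of 36, and SMC3, a subunit of the cohesin ring, lost 25 of 25. GTF2I, a transcription factor, lost 21 of 30, and NCAPD2, a subunit of condensin I, lost 21 of 28. GTF2I has near-identical copies, GTF2IP1 and GTF2IP4, whose introns are also among the lost (13 in GTF2IP4), so that reads could be split between them and these counts are uncertain.

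Loss of some introns was more frequent than loss of all. Among 2934 genes with 3 or more introns that passed the minimum, 112 lost all, 492 lost some and 2330 lost none. Of the genes that lost all, KIF11, the kinesin that pushes spindle poles apart, lost 19 of 19. TTK, the spindle checkpoint kinase MPS1, and MTREX, the RNA helicase of the nuclear exosome, lost 17 of 17 each. PDS5A, a cohesin regulator, lost 15 of 15, and NASP, a histone chaperone, lost 13 of 13. GMPS, MCMBP, NCAPH and NDC80 also lost 13 of 13 each. In KIF11, SMC3, TTK, MTREX, PDS5A and NASP no other annotated intron of that gene alone was listed in either library of 25 μg/mL DRB. The sums of these genes thus held no listed split read. Unannotated introns and introns shared between genes are left out here and in every gene sum below.

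The sum over all introns of a gene shows the same thing in the single libraries. For SMC3 no split read was listed in either library of 25 μg/mL DRB, against 321.6 and 280.5 CPM in DMSO. TPR had 0 and 7.73 CPM with 25 μg/mL DRB, against 734.8 and 495.2 CPM in DMSO. CKAP5 had 4.14 and 6.76 CPM with 25 μg/mL DRB, against 501.9 and 468.8 CPM in DMSO. The 2 conditions did not overlap in these genes. They were named for their many lost introns, so that this follows from the rule and is a description. At the other treatments these genes were listed throughout: TPR had 665.5 and 576.7 CPM with 10 μg/mL DRB and 672.2 and 564.9 CPM with 2 μg/mL α-amanitin, and SMC3 301.8 and 333.1 CPM with 10 μg/mL DRB and 233.5 and 252.0 CPM with 2 μg/mL α-amanitin.

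**Figure D2:**
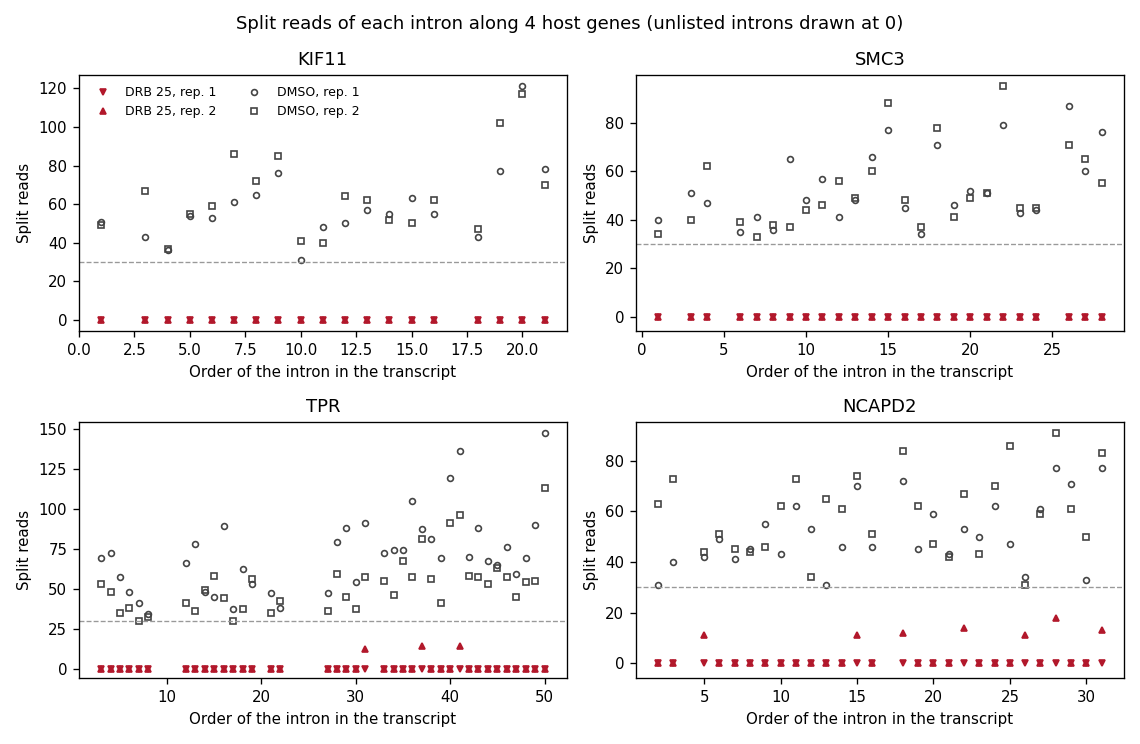
Split reads (y axis) of each intron that passed the read minimum, by its order in the transcript (x axis), in KIF11, SMC3, TPR and NCAPD2. Red triangles are the 2 libraries of 25 μg/mL DRB, with unlisted introns drawn at 0, open symbols are the 2 DMSO libraries, and the dashed line is the minimum of 30 reads. In KIF11 and SMC3 every intron drawn is unlisted with 25 μg/mL DRB, and the introns still listed in TPR and NCAPD2 hold 11 to 18 reads in replicate 2.

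The introns that host genes kept were mostly at a low level. In TPR the 3 introns still listed had 12, 14 and 14 reads in replicate 2 of 25 μg/mL DRB and were not listed in replicate 1. In NCAPD2 the 7 still listed had 11 to 18 reads in replicate 2 and were not listed in replicate 1. Over all host genes, the 2678 introns that passed the minimum and stayed listed had a median of 15.4% of their DMSO CPM with 25 μg/mL DRB, and the introns of genes that lost none had a median of 73.6%. When the lost introns were taken out, 877 host genes had other introns listed in DMSO. The summed CPM of these other introns had a median log2 ratio of -3.64 (25 μg/mL DRB over DMSO, 0.5 CPM added). This median was -2.99 without replicate 1 of 25 μg/mL DRB and -5.14 without replicate 2. Sums over whole genes, lost introns included, had a median of -4.37 in host genes. Over the 4383 genes with an intron that passed the minimum, host genes among them, the whole-gene median was -0.88. Unlisted introns count as 0 but may hold reads. The fall may thus be overstated where the other introns were weak, as in SMC3 (8.14 CPM in DMSO, against 137 CPM in TPR). In 251 of the 877 no other intron counted in these sums was listed with 25 μg/mL DRB. These ratios come from the contrast that the rule used and are a description.

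In 547 genes that lost some but not all introns, the lost introns had fewer DMSO reads on average than the listed ones in 466 genes and more in 79. Their exon ends had less G+C in 337 genes and more in 204. Position in the gene separated them little: the lost introns lay further 3′ in 287 genes and further 5′ in 260.

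Only 2 host genes, UBE2J2 and TIMM9, had other annotated introns of their own that summed to their DMSO level or above with 25 μg/mL DRB. Only 5 lost introns shared a splice site with an intron that held 30 or more reads over both libraries of 25 μg/mL DRB. UBE2J2 encodes a ubiquitin-conjugating enzyme of the endoplasmic reticulum. Its lost intron, between exon bases 1190867 and 1191425 on chromosome 1 and in the coding part, was unlisted with 25 μg/mL DRB, against 41 and 43 split reads in DMSO. Another intron, from the same acceptor to a donor at 1192372 that the annotation does not pair with it, was listed in neither DMSO library. It had 7 and 11 reads with 10 μg/mL DRB and 43 and 97 reads with 25 μg/mL DRB. With α-amanitin it had 4 reads and no listing at 1 μg/mL, and 22 and 8 reads at 2 μg/mL. The lost intron itself had 44 and 59 reads with 10 μg/mL DRB. Splicing at the UBE2J2 acceptor was thus on record with 25 μg/mL DRB from another donor. The gene's summed CPM, which leaves this unannotated intron out, was 79.0 and 78.4 with 25 μg/mL DRB, against 57.0 and 57.7 in DMSO.

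TIMM9, a chaperone of the mitochondrial inner membrane import system, lost an intron in its 5′ UTR, which had 34 and 54 reads in DMSO. An annotated intron from the same acceptor to a donor further 5′ had 15 and 40 reads with 25 μg/mL DRB, against no listing and 6 reads in DMSO. It had 26 and 31 reads with 10 μg/mL DRB and 11 and 14 with 2 μg/mL α-amanitin. XPO1, the nuclear export receptor, lost its first intron, with 79 and 103 reads in DMSO. From the same acceptor, an annotated intron with a nearer donor was listed in neither DMSO library. It had 10 and 18 reads with 10 μg/mL DRB, 12 and 19 with 25 μg/mL DRB, and 19 and 15 with 2 μg/mL α-amanitin. A further annotated intron at this acceptor had 4 and 5 reads in DMSO and 10 and 9 with 25 μg/mL DRB. It had 29 and 35 reads with 10 μg/mL DRB and 29 and 26 with 2 μg/mL α-amanitin. The other 2 were in AK6, a nuclear adenylate kinase, and PSMG4, a proteasome assembly chaperone. In both, the other intron at the site was already listed in DMSO, with 41 and 44 reads at the AK6 donor and 18 and 10 at the PSMG4 donor. Over all, 47 of the 2824 lost introns had another intron at their donor or acceptor listed with 25 μg/mL DRB. These 5 were singled out after their values were seen.

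For most lost introns a flanking exon was still listed with 25 μg/mL DRB. The files also list exons with the split reads that support their inclusion. The lowest sum of inclusion, skipping and retention reads in a listed exon was 6, a looser limit than that of introns. Inclusion reads may hold reads of the unlisted intron itself, so that they are not separate from the intron counts. For 2060 of the 2824 lost introns at least 1 exon that ends at the intron was listed with 25 μg/mL DRB, and for 764 none was. Where listed, the better covered of the flanking exons had a median of 21 inclusion reads over both libraries of 25 μg/mL DRB, against 192 over both DMSO libraries.

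The 12 lost introns with the most reads in DMSO, 1 per gene, lay in genes of several functions. NASP intron 4, between exon bases 46070688 and 46072154 on chromosome 1, was unlisted with 25 μg/mL DRB, against 303 and 255 split reads in DMSO, at least 23.0-fold lower. UBA2, a subunit of the SUMO-activating enzyme, was unlisted at intron 13, against 148 and 191 reads in DMSO. CCNB2, cyclin B2, was unlisted at intron 7, against 140 and 185 reads in DMSO. For these 3 introns the bound was at least 13.3-fold lower. DDIT4, an inhibitor of mTORC1 with a transcript of short life, was unlisted at intron 2, against 215 and 108 reads in DMSO. SLC1A5, the glutamine transporter ASCT2, was unlisted at intron 7, against 182 and 127 reads in DMSO. Both lay in exon ends rich in G+C (63.0% and 58.0%), unlike the other 10 introns of this group, at 33.5% to 46.0%.

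The group went on with ECT2, which acts in cytokinesis, at 135 and 157 reads in DMSO, and IVNS1ABP, a kelch protein that binds the influenza NS1 protein, at 157 and 125. AURKA, the spindle pole kinase Aurora A, had 110 and 164 reads in DMSO, and PSMC6, an ATPase of the proteasome base, 113 and 148. CCNA2, cyclin A2, had 96 and 164 reads in DMSO, TPR intron 50 had 147 and 113, and ATP1B1, the β subunit of the sodium pump, 130 and 127. None of these was listed with 25 μg/mL DRB, and the lowest bound, in CCNA2, was at least 10.55-fold lower. All 12 introns lay in coding sequence. They were between 93 and 6148 nucleotides long, the shortest in IVNS1ABP and the longest in CCNB2.

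At the other treatments the 12 introns differed in level. NASP intron 4 had 126 and 147 reads with 10 μg/mL DRB and 210 and 236 with 2 μg/mL α-amanitin. IVNS1ABP intron 11 had 32 and 43 reads with 10 μg/mL DRB and 60 and 66 with 2 μg/mL α-amanitin. DDIT4 intron 2 had 81 and 85 reads with 10 μg/mL DRB and 36 and 38 with 2 μg/mL α-amanitin. As a share of the DMSO mean, the 10 μg/mL DRB value was 0.498 in NASP, 0.268 in IVNS1ABP and 0.520 in DDIT4. ATP1B1 intron 3, by contrast, had 117 and 150 reads with 10 μg/mL DRB, 1.06 times its DMSO mean in CPM. The 4 introns were thus all lost at 25 μg/mL from different levels at 10 μg/mL.

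**Figure D3:**
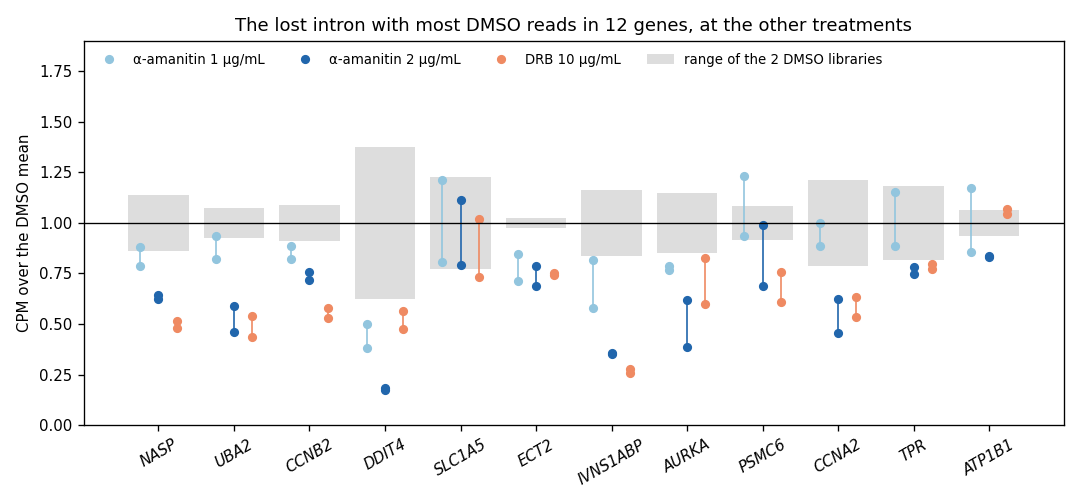
CPM over the DMSO mean (y axis) of the lost intron with most DMSO reads in each of 12 genes (x axis), with 1 point per library for 1 and 2 μg/mL α-amanitin and 10 μg/mL DRB. Grey bars span the 2 DMSO libraries. With 10 μg/mL DRB the ratios of means run from 0.268 in IVNS1ABP to 1.06 in ATP1B1.

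The lost introns were counted in 15 gene lists, of which 14 are reported. The lists are described by their counts, beside 10.6% of introns lost (2702 of 25598) and 20.6% of genes with a lost intron (901 of 4383) over all genes, and no test was made on them. The mitosis list stood highest: 24 of its 34 genes with an intron that passed the minimum lost at least 1, and 178 of 399 introns were lost (44.6%). Of the 34, 9 lost every one: KIF11, TTK, NDC80 (the kinetochore protein that holds microtubules), CCNB2, NUF2 (its partner), AURKA, NEK2 (a centrosome kinase), ASPM (a spindle pole protein) and ESPL1 (separase, which opens cohesin). DLGAP5 lost 12 of 18, KIF2C 10 of 19, CENPF 9 of 13 and BUB1B 8 of 10. PLK1 lost 4 of 9, and TOP2A, which cuts and reseals DNA strands, 4 of 33. The median log2 ratio of the summed reads of these 34 genes was -4.23 (25 μg/mL DRB over DMSO), against -0.88 over all genes, and their exon ends had a median of 42.0% G+C, against 49.5%.

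DNA replication and repair lost a smaller share. Of its 29 genes 14 lost at least 1 intron, and 58 of 291 introns were lost (19.9%). CDC6, which loads the MCM helicase, lost 10 of 10, MSH6, a mismatch sensor, 9 of 9, and CDC45, a part of the replicative helicase, 6 of 6. FANCI lost 2 of 30. Among ubiquitin ligases 38 of 186 introns were lost (20.4%), with CUL2, a cullin scaffold, at 13 of 17 and TRIP12 at 9 of 31.

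RNA polymerase II and its elongation factors were near the share over all genes. On the list of RNA polymerase II and elongation factors 32 of 262 introns were lost (12.2%). They lay in CDC73 (10 of 11), PAF1 (6 of 12), CTR9 (2 of 9) and LEO1 (2 of 2), subunits of the PAF1 elongation complex, and in INTS3 (4 of 4), CDK7 (3 of 7), XRN2 (3 of 27) and LARP7 (2 of 2). Chromatin modifiers lost 20 of 157 (12.7%), with KDM1A, a histone demethylase, at 8 of 16 and SUZ12, a subunit of the Polycomb complex PRC2, at 6 of 11. Receptor tyrosine kinases and the RAS pathway lost 15 of 140 (10.7%), 9 of them in EGFR.

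NRF2 targets lost 20 of 200 (10.0%), and these lay in GCLC (7 of 7), which starts glutathione synthesis, ABCC2 (4 of 30), and the aldo-keto reductases AKR1C1, AKR1C2 and AKR1C3. The AKR1C genes share long stretches of sequence, so that their reads may be split between them and their counts are uncertain. In zinc finger genes 6 of 26 introns were lost (23.1%), 4 of them in ZNF638.

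Other lists had few or no lost introns. Splicing factors lost 11 of 459 (2.40%), among them 3 of 4 in MBNL1 and 2 of 24 in SF3B3. Cell adhesion and extracellular matrix lost 16 of 585 (2.74%), 10 of them in PTK2, the focal adhesion kinase. The short-lived and immediate early list lost 1 of 39, the single intron of BTG1, an anti-proliferative gene, with 32 and 36 reads in DMSO. Its 16 genes with an intron that passed the minimum had a median log2 ratio of summed reads of 0.89 (25 μg/mL DRB over DMSO). Over all genes it was -0.88. No intron was lost among 341 of cytosolic ribosomal proteins, 170 of oxidative phosphorylation or 33 of p53 targets. The ribosomal protein introns had a median DMSO mean of 1410 reads and those of oxidative phosphorylation 130.8, against 63 over all genes. The p53 targets were at a median of 51.

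**Figure D4:**
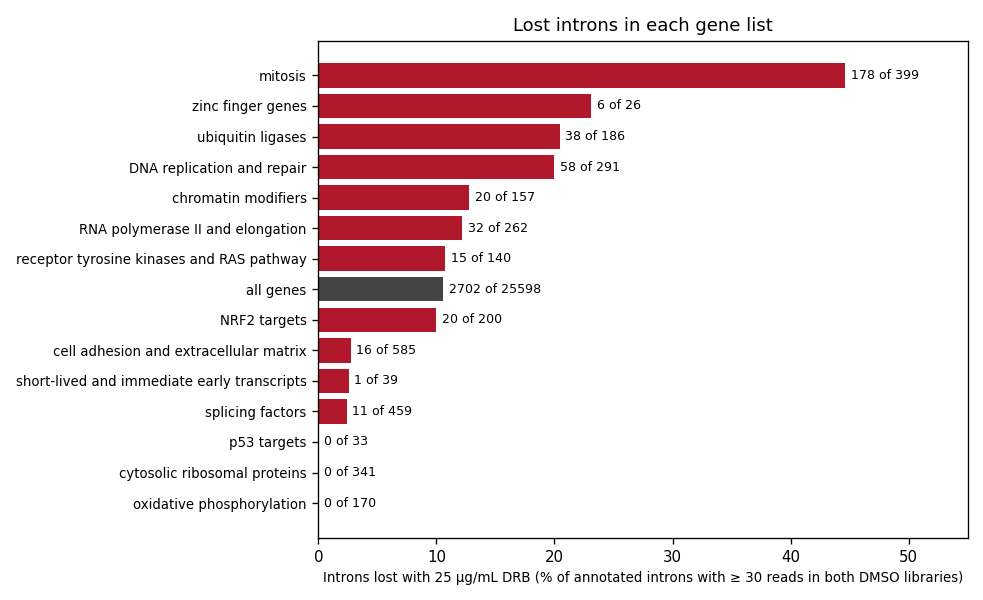
Share of introns lost with 25 μg/mL DRB (x axis, % of annotated introns with at least 30 reads in both DMSO libraries) in each of the 14 gene lists (red) and over all genes (dark bar), with the counts beside the bars. Mitosis is highest with 178 of 399, and ribosomal proteins, oxidative phosphorylation and p53 targets have none.

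Base composition differed between lost introns and those still listed. G+C was counted in the 100 bases before the donor and the 100 after the acceptor, which can run past a short exon. The median was 43.0% beside lost introns and 50.0% beside introns still listed. Within introns it was 39.7% and 44.8%. Since the share lost varied with the DMSO level, the shares were taken within levels. At a DMSO mean of 30 to 60 reads, 32.1% were lost where the exon ends had under 35% G+C (162 of 504), 27.7% at 40% to 45% (628 of 2267), 12.4% at 50% to 55% (239 of 1931) and 5.95% at 60% and over (126 of 2118). At 60 to 100 reads the same classes lost 8.66%, 10.5%, 3.48% and 2.00%.

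The libraries themselves differed along the same scale. Over the introns with exon ends under 35% G+C, the median log2 ratio to DMSO was -1.57 and -1.47 in the libraries of 25 μg/mL DRB, and at 60% and over it was -0.27 and -0.22. With 10 μg/mL DRB the values were -0.27 and -0.18 under 35%, and 0.26 and 0.16 at 60% and over. With 2 μg/mL α-amanitin they were -0.28 and -0.03 under 35%, and 0.15 and 0.04 at 60% and over. DMSO replicate 2 against replicate 1 gave 0.01 and -0.03. The part of library preparation in these values was not tested.

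**Figure D5:**
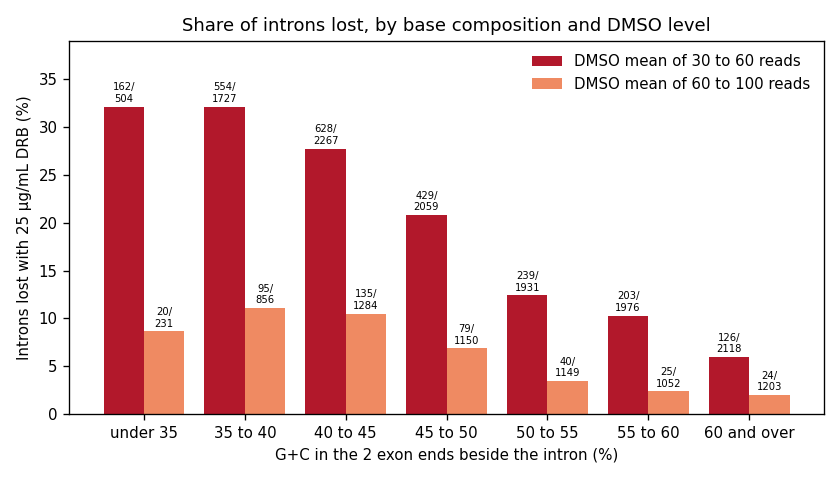
Share of introns lost with 25 μg/mL DRB (y axis, %) by G+C content of the exon ends (x axis, %), for introns with a DMSO mean of 30 to 60 reads (dark) and of 60 to 100 reads (light). Numbers above the bars are lost and all introns. At 30 to 60 reads the share is 32.1% under 35% G+C and 5.95% at 60% and over.

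Gene length differed as well. The lost introns lay in genes with a median length of 49166 bases, against 34113 for the introns still listed, and host genes had a median length of 43785, against 24536 for genes that lost none. The share lost was 3.63% in genes under 5 kb and 14.8% in genes of 100 kb and over. At 30 to 60 reads and under 45% G+C, 29.8% were lost in genes under 20 kb, 30.9% in genes of 20 to 50 kb and 29.4% in genes of 50 kb and over. At 45% G+C and over the shares were 10.4%, 12% and 14.4%. The longest host gene was ADGRL2, an adhesion receptor, at 687785 bases.

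Lost introns were also longer than the rest. They had a median of 1479 nucleotides, against 1090 for those still listed. The longest lost intron was 114573 nucleotides, intron 2 of MBNL1, with 38 and 33 reads in DMSO. The shortest was 70 nucleotides, intron 9 of RFC4, a subunit of the replication clamp loader, with 58 and 49 reads in DMSO. At 30 to 60 reads and under 45% G+C, 30.1% of introns under 1000 nucleotides were lost and 29.8% of longer ones. At 45% G+C and over the shares were 10.7% and 14.1%.

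By order in the transcript, 6.58% of first introns were lost (144 of 2188), 9.03% of introns 3 to 5 and 13.9% of introns 21 and later (278 of 2007). At a DMSO mean of 30 to 60 reads these classes lost 12.6%, 17.6% and 19.9%. Introns 6 to 10 lost 20% at that level and introns 11 to 20 lost 20.9%, so that the share rose little after intron 6. The position of the donor along the gene gave a median of 60.5% of gene length in lost introns and 60.7% in those still listed. Coding introns were lost in 10.6% of cases (2744 of 25917), introns of the 5′ UTR in 5.76% (33 of 573) and introns of the 3′ UTR in 5.26% (10 of 190). Among chromosomes, chromosome 10 (17.1%) and chromosome 4 (17%) were highest and chromosome 19 was lowest (3.67%, 83 of 2259). At 30 to 60 reads these chromosomes lost 29.7%, 29.8% and 7.22%.

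The lost introns were already somewhat lower at the other treatments. All comparisons with DMSO in this paragraph share the DMSO libraries that the rule used, and are a description. The median log2 ratio to DMSO was -0.20 with 10 μg/mL DRB, -0.12 with 1 μg/mL α-amanitin and -0.35 with 2 μg/mL α-amanitin. Over all 27028 introns it was -0.03, -0.01 and -0.04, and over those still listed at a DMSO mean of 30 to 60 reads it was 0.12, 0.03 and 0.01. Both libraries of 2 μg/mL α-amanitin were below both DMSO libraries for 1659 lost introns (58.7%, with 31.7% over all introns) and above both for 168 (5.95%, with 24.1% over all introns). With 10 μg/mL DRB the counts were 1248 below (44.2%, with 33.1% over all) and 375 above (13.3%, with 29.1% over all). With 1 μg/mL α-amanitin they were 904 below (32.0%, with 20.7% over all) and 299 above (10.6%, with 18.4% over all). At 0.5 of DMSO or less were 162 lost introns with 10 μg/mL DRB (5.74%, with 4.04% over all), 17 with 1 μg/mL α-amanitin (0.602%, with 0.17%) and 220 with 2 μg/mL α-amanitin (7.79%, with 3.04%). At 2 times DMSO or more were 7 with 10 μg/mL DRB (0.248%, with 2.2% over all), 0 with 1 μg/mL α-amanitin (0.0259% over all) and 3 with 2 μg/mL α-amanitin (0.106%, with 0.477%).

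Of the lost introns, 9 were in neither library of 10 μg/mL DRB as well. They lay in AKR1C1, AKR1C2, AKR1C3, ARHGAP18, KRT80, NAGK, TSPAN15 and ST3GAL5, the last with a pair of introns. KRT80, a keratin, was unlisted at intron 4 at both DRB doses and had 32 and 40 reads with 2 μg/mL α-amanitin, against 62 and 48 reads in DMSO. ST3GAL5, the GM3 ganglioside synthase, was unlisted at intron 4 at both DRB doses and had 37 and 28 reads with 2 μg/mL α-amanitin, against 67 and 48 reads in DMSO.

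At the other end were introns that stood above DMSO with 10 μg/mL DRB and were lost at 25 μg/mL. Among lost introns with a DMSO mean of at least 40 reads, EGFR intron 23 had 89 and 105 reads with 10 μg/mL DRB, against 54 and 37 in DMSO, a ratio of means of 2.16 in CPM. RETREG2, an endoplasmic reticulum protein, had 78 and 98 reads with 10 μg/mL DRB at intron 6, against 42 and 42 in DMSO. GCLC intron 14 had 69 and 106 reads with 10 μg/mL DRB, against 44 and 39 in DMSO. In all 3 both libraries of 10 μg/mL DRB lay above both DMSO libraries, which follows from the pick by ratio. The same held for 13.3% of lost introns and 29.1% of all introns. Summed over the gene, EGFR had 434.1 and 379.7 CPM with 10 μg/mL DRB and 5.52 and 22.4 CPM with 25 μg/mL DRB, against 276.2 and 233.1 CPM in DMSO. By the same sums GCLC had 217.4 and 226.6 CPM with 10 μg/mL DRB and 0 CPM with 25 μg/mL DRB, against 119.8 and 99.7 CPM in DMSO.

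A test that used none of the libraries of the rule set 10 μg/mL DRB against 2 μg/mL α-amanitin. By limma voom with TMM scaling and Benjamini-Hochberg adjustment over 84574 introns, 4895 introns passed an adjusted p of 0.05 (5.79%), 1780 of them higher (2.1%) and 3115 lower (3.68%) with 10 μg/mL DRB. Of the 2824 lost introns 114 passed (4.04%), 67 higher and 47 lower. The share that passed was thus not above the share over all introns. Which direction had more calls depended on the setting. By limma trend on log2 CPM 37 lost introns were higher and 57 lower (all introns 1382 and 3774). With only the 2 groups compared 41 were higher and 45 lower (all introns 1316 and 2810). With the replicate number as a block 47 were higher and 34 lower (all introns 1341 and 2986). With each library scaled by its total split reads, under which the median of all introns was 0.17 on the log2 scale (0.03 with TMM), 136 lost introns were higher and 26 lower, and of all introns 3364 were higher and 1920 lower. Leaving out 1 library at a time left between 25 calls (without replicate 1 of 2 μg/mL α-amanitin) and 74 (without its replicate 2), and 43 to 72 without any 1 of the other 4 libraries.

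Of the lost introns higher with 10 μg/mL DRB, EGFR intron 14 had 82 and 92 reads, against 22 and 34 with 2 μg/mL α-amanitin (log2 fold change 1.85 ± 0.21 SE, adjusted p = 0.00559 by limma voom). GCLC intron 15 had 73 and 88 reads with 10 μg/mL DRB, against 34 and 36 with 2 μg/mL α-amanitin (1.40 ± 0.18, adjusted p = 0.00733 by limma voom). DDIT4 intron 2 was higher as well (1.36 ± 0.20, adjusted p = 0.00983 by limma voom). GTF2H3, a subunit of TFIIH, DROSHA, the nuclease that cuts primary miRNAs, and ADGRL2 followed, with log2 fold changes of 1.52, 1.40 and 1.24. In these 6 introns, which were picked by adjusted p, both libraries of 10 μg/mL DRB lay above both of 2 μg/mL α-amanitin.

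Of those lower with 10 μg/mL DRB, intron 3 of TUBA4A, an α-tubulin, had 38 and 45 reads, against 203 and 181 with 2 μg/mL α-amanitin (-1.98 ± 0.18, adjusted p = 0.00333 by limma voom). CENPU, a kinetochore protein, had 28 and 39 reads with 10 μg/mL DRB at intron 11, against 97 and 115 with 2 μg/mL α-amanitin (-1.44 ± 0.19, adjusted p = 0.00777 by limma voom). IDI1, an isomerase of sterol synthesis, PBK, a mitotic kinase, ADGRE5, an adhesion receptor, and ASF1B, a histone chaperone, also passed, with -1.22, -1.44, -1.21 and -1.12. Tubulin genes are close in sequence, so that the TUBA4A reads may be shared.

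Summed over genes, 2272 of 9590 genes passed in the same comparison (23.7%), 1104 higher (11.5%) and 1168 lower (12.2%) with 10 μg/mL DRB. Of the 901 host genes 229 passed, 124 higher and 105 lower, or 25.4%, which is near the share over all genes. With scaling by total split reads the host genes were 174 higher and 68 lower, and all genes 1441 higher and 871 lower, with the median of all genes at 0.12 on the log2 scale (0.02 with TMM). With the replicate number as a block, 361 host genes and 3467 of all genes passed. EGFR was higher with 10 μg/mL DRB (2.04 ± 0.19 SE, adjusted p = 0.00309 by limma voom), at 434.1 and 379.7 CPM, against 74.0 and 111.4 CPM with 2 μg/mL α-amanitin. UBTF, a factor of RNA polymerase I, was higher too, at 343.7 and 391.1 CPM with 10 μg/mL DRB, against 116.6 and 130.0 CPM with 2 μg/mL α-amanitin (1.47 ± 0.10, adjusted p = 0.00234 by limma voom). Among the genes with the most lost introns, TPR (-0.10), CKAP5 (-0.11), NCAPD2 (0.11) and KIF11 (0.10) did not pass, and SMC3 (0.28, adjusted p = 0.0621 by limma voom) did not pass either. Fewer host genes, and fewer of all genes, passed with any 1 of these libraries left out. The median log2 fold change of host genes was 0.04 with all libraries (all genes 0.02). It was -0.05 without replicate 1 of 2 μg/mL α-amanitin (all genes -0.02) and 0.11 without its replicate 2 (all genes 0.02).

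Between the doses of α-amanitin no lost intron and no host gene passed. Of 84574 introns 0 passed between 2 and 1 μg/mL α-amanitin by limma voom (percent called 0), and 0 by limma trend on log2 CPM. At an unadjusted p under 0.05 by limma voom were 7970 of the 84574 introns, and 477 of the 2824 lost introns. The lost introns had a median log2 fold change of -0.22 (2 over 1 μg/mL), against -0.02 over all introns. Of 9590 genes 0 passed by limma voom, and 0 by limma trend. At an unadjusted p under 0.05 by limma voom were 1401 of the 9590 genes, and 244 of the 901 host genes. With the replicate number as a block, 8 of the 9590 genes passed, 7 higher and 1 lower with 2 μg/mL α-amanitin (smallest adjusted p = 0.046 by limma voom), none of them a host gene. Among introns listed in every library 54 of 58531 passed (0.0923%), 4 of them lost introns (0.144% of 2772), and without replicate 2 of 10 μg/mL DRB 23 of 81826 passed, none of them lost introns.

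Facts of the whole series that bear on these values are few. The 100 introns with most reads took 16.2% and 16.4% of the split reads with 25 μg/mL DRB, against 7.98% to 9.77% in the other 8 libraries, and 45513 and 60620 introns were listed there, against 74739 to 90955. Replicates differed by more than counting noise, with a mean chi-square per degree of freedom of 4.54 with 25 μg/mL DRB, against 2.19 to 3.17 in the other conditions. Of 10 markers written down for A549 cells, 5 were listed in every library, KRT8, KRT18, ALDH1A1 and NQO1 among them. KRT19 and EPCAM stood at 0 CPM in every library. Levels of the markers were not all steady. KRT18 had 78.6 and 151.3 CPM with 25 μg/mL DRB, against 513.7 and 596.1 CPM in DMSO. AKR1C1 had 0 and 0, against 76.3 and 28.8, and AKR1C3 0 and 10.1, against 126.6 and 99.9. NQO1 was higher, at 2064 and 1754, against 1571 and 1387. Of 6 markers of other cell types 5 were listed in none, and COL1A1 had 24.1 and 0 CPM with 25 μg/mL DRB, against 157.5 and 12.4 CPM in DMSO. The part of these differences in the loss was not tested.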

How the data were processed

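Libraries of A549 cells were grouped by the labels. Per the submitters' processing notes, the authors aligned reads with STAR 2.7.3a to GRCh37 (hg19), and the paper's methods name the IPSA pipeline with filters on junctions, and another version of STAR. The deposited files give, in a text field, raw counts per intron and exon with no normalization that the files show. The deposited score column was not used. Because the counts stand in a text field, limma voom was used in place of a count test. Introns were matched to GENCODE release 44 mapped to GRCh37. CPM are split reads scaled to a library total of 1000000, and an unlisted intron counted as 0. Gene sums counted only annotated introns that belong to 1 gene. Ratios added 0.5 CPM. Tests (limma 3.58.1, R 4.3.3) used the 6 libraries of 10 μg/mL DRB and both α-amanitin doses, and kept introns or genes that reached 10 reads in 2 libraries and 15 in all. Python 3.11.15, pandas and pysam served for the rest. The fit was tested on simulated data. The introns, gene lists and tests were chosen with earlier results of these data known. Genes were named by rule: the 12 lost introns with most DMSO reads, the 5 genes with most lost introns, the 5 highest and 5 lowest ratios at 10 μg/mL DRB among lost introns with a DMSO mean of at least 40 reads, the extremes of length, up to 6 calls per direction, up to 3 per gene list, and those at the threshold, 1 per gene. Other genes are named where a count or a gene list turns on them. Introns of Y-linked genes are counted and not named. A few genes and 1 of the gene lists are not reported here.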

Additional observations from a re-analysis of the deposited data

How the results depend on the processing

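The number of lost introns followed the minimum and the libraries. It was 2824 as reported, 7146 with at least 20 reads, 648 with at least 50, and 798 with at least 30 reads after DMSO was scaled to the smallest library of 25 μg/mL DRB. Leaving out 1 library gave 3002 to 6055: 4516 without DMSO replicate 1 and 6055 without replicate 2 of 25 μg/mL DRB. Lost introns called between 10 μg/mL DRB and 2 μg/mL α-amanitin were 114 as reported (4.04%, with 5.79% of all introns), 182 with no filter on low counts (6.44%, with 10.1%), 289 among introns listed in every library (10.4%, with 17%), and 25 to 74 with 1 library left out (0.885% to 2.62%, with 2.32% to 4.51%). Host genes called in that comparison were 229 as reported and 54 to 178 with 1 library left out. A condition left with 1 library was assumed to vary like the others. Between 2 and 1 μg/mL α-amanitin 4 lost introns passed among introns listed in every library (0.144%, with 54 or 0.0923% of all introns), all lower, and 0 under each other setting run, the libraries left out included (0 to 0). Host genes gave 0 there under every setting run.

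Replicate numbers were not taken to pair the libraries, since the labels give no shared culture or day. Differences between replicates correlated between conditions at 0.132, 0.166 and 0.278 over 55065 introns. With a replicate block, 81 lost introns passed between 10 μg/mL DRB and 2 μg/mL α-amanitin (2.87%, with 5.12% of all introns). Host genes came to 361 there (40.1%, with 36.2% of all genes), and to 229 without the block. Neither had a call between the α-amanitin doses, where 8 of all genes passed.

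The median log2 ratio of lost introns to DMSO with 10 μg/mL DRB was -0.20 as reported, -0.32 with TMM (over all introns -0.03 and -0.16) and -0.25 to -0.17 with 1 library left out. With 1 μg/mL α-amanitin it was -0.12 as reported and with 0.1 CPM added, -0.10 with 2 CPM added, -0.14 with TMM and -0.12 to -0.11 with 1 library left out, and with 2 μg/mL α-amanitin -0.44 to -0.28 with 1 library left out. For the other introns of host genes with 25 μg/mL DRB it was -5.14 to -2.99 with 1 library left out. No alternative run turned a direction of these medians. Depth limits the low end: an unlisted intron may hold up to 10 reads, so that 1061 of the lost introns, at a DMSO mean of 30 to 40 reads, have the weakest bounds.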
